A study of Mus musculus with 4 samples.

Results

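Il10 and Il24 are 2 cytokine genes of the IL-10 family, taken by symbol from the 32285 genes of the deposited matrices and followed in all 4 single-cell libraries of the study. They were selected on their counts in these same libraries, where both were higher with butyrate, so their own difference between butyrate and control is described here without a test. The cells were CD8+ T cells of the genotype gBT-I.CD45.1 tg, whose transgenic T cell receptor recognises a peptide of a herpes simplex virus protein. Spleen cells of 2 mice were activated with peptide-pulsed splenocytes and LPS and grown in 12.5 U/ml IL-2. From day 3 to day 5, 0.5 mM sodium butyrate was added to one culture per mouse and PBS, as control, to another. On day 6, viable CD8+Vα2+ cells were sorted for droplet capture with 3′ counting. Each group therefore holds 2 libraries, butyrate 1 and control 1 from one mouse and butyrate 2 and control 2 from the other, all from batch 1. All cultures share the transgenic receptor, LPS and IL-2, so neither group stands for an unstimulated or in vivo T cell, and the spleen cells used to present peptide could leave other cell types behind.

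IL-10 is a cytokine that dampens immune responses through a receptor made of Il10ra and Il10rb, and effector CD8+ T cells can make it at the height of an infection. Il24 lies in the same gene cluster and encodes a secreted protein that signals through receptors built with the chains Il20ra, Il20rb and Il22ra1, which are best known from epithelial cells. Maf encodes c-Maf, a transcription factor that drives Il10 in several T cell types. Prdm1 encodes Blimp-1, a transcription factor of terminal effector differentiation that also takes part in Il10 expression in T cells. Butyrate is a product of gut bacterial fermentation and an inhibitor of histone deacetylases.

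The libraries held 64388093 to 76522004 UMIs (unique molecular identifiers, each standing for 1 captured RNA molecule). After cell calling, 2560 and 2664 butyrate cells and 2059 and 2632 control cells were kept, with 20494 to 24816 UMIs in the median cell. A Cd8a or Cd8b1 UMI was present in 94.6 to 95.9% of them. Between 1 and 6 cell barcodes were shared by any pair of libraries, where 0.776 to 1.03 would be shared by chance. For values per cell every cell was thinned at random to 8000 UMIs, which left 2506 and 2596 butyrate cells and 1988 and 2520 control cells. A cell is said to carry a gene if it holds at least 1 UMI of it after thinning.

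In GENCODE M21 (GRCm38, mm10), Il10 lies on chromosome 1 from 131019845 to 131024974 on the plus strand, and Il24 on chromosome 1 from 130882074 to 130887454 on the minus strand. Their starts are 132 kb apart. Il10 counted 1447 and 2177 UMIs in the butyrate libraries, against 32 and 43 UMIs in the control libraries. As CPM scaled by TMM, a correction for differences in RNA composition, its level was 22.5 and 34.0 in butyrate and 0.588 and 0.640 in control. The log2 fold change was 5.51 (SE 0.49, n = 2 libraries per group). Butyrate 2 was the higher of the butyrate pair. Il24 counted 1056 and 1088 UMIs in butyrate against 132 and 198 UMIs in control, or 16.4 and 17.0 CPM against 2.42 and 2.95 CPM. Its log2 fold change was 2.62 (SE 0.09). Of 13487 genes tested in the same fit, 71.8% passed an adjusted p of 0.05, 36% higher and 35.7% lower in butyrate. In summed counts, more cells carrying a gene and more RNA per cell cannot be told apart, and the values per cell below separate them only as far as 8000 UMIs allow.

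Maf and Prdm1 were higher in butyrate too. Maf measured 26.6 and 35.6 CPM in butyrate against 3.599 and 5.62 CPM in control, a log2 fold change of 2.73 (SE 0.34, edgeR quasi-likelihood test, adjusted p = 0.0147). Without the control 1 library the adjusted p was 0.0761, and without control 2 it was 0.0849. Prdm1 measured 28.8 and 30.2 CPM in butyrate against 7.51 and 8.49 CPM in control (log2 fold change 1.88, SE 0.07, adjusted p = 4.39e-12). The proliferation gene Mki67 was lower at 419 and 395 CPM in butyrate, against 549 and 501 CPM in control (log2 fold change -0.37, SE 0.05, adjusted p = 1.37e-05). Of 53 genes of the G2 and M phases (G2M genes), 45 were lower and 5 higher in butyrate, with a median log2 fold change of -0.64. Of 42 S phase genes 14 were lower and 18 higher, beside 35.7% of all genes lower and 36% higher. Top2a, a topoisomerase of dividing cells, did not pass at 730 and 693 CPM in butyrate against 713 and 651 CPM in control (log2 fold change 0.06, SE 0.05, adjusted p = 0.283). With library totals as the only scaling its log2 fold change was -0.14 (adjusted p = 0.0166), and that scaling moved the median gene to -0.21 from -0.01.

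**Figure D1:**
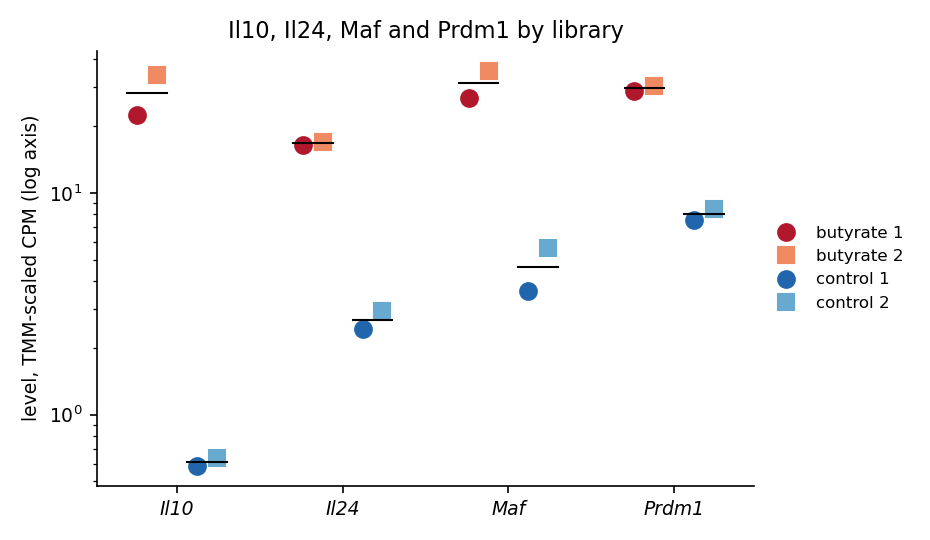
Level of Il10, Il24, Maf and Prdm1 in each library as TMM-scaled CPM on a log axis, butyrate libraries in red and orange and control libraries in blue, with bars at the mean of each pair. The lower butyrate value and the higher control value are 22.5 and 0.640 for Il10, and 28.8 and 8.49 for Prdm1.

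Il10 was carried by a minority of the butyrate cells. It was found in 176 of 2506 cells of butyrate 1, or 7.02% (exact 95% interval 6.05 to 8.09), and in 266 of 2596 cells of butyrate 2, or 10.2% (9.11 to 11.5). In control it was found in 7 of 1988 cells, or 0.352% (0.142 to 0.724), and in 8 of 2520 cells, or 0.317% (0.137 to 0.625). Without thinning the shares were 12.7 and 16.1% in butyrate and 1.17 and 1.33% in control. Il24 was carried by 121 cells of butyrate 1, or 4.83% (4.02 to 5.74), and by 115 cells of butyrate 2, or 4.43% (3.67 to 5.29). In control it was carried by 19 and 29 cells, or 0.956% (0.576 to 1.49) and 1.15% (0.772 to 1.65). Unthinned, the Il24 shares were 8.83 and 8.67% in butyrate and 2.48 and 3.61% in control. Intervals and shares cover counting error only, not the spread between mice.

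Within these minorities a few cells held many molecules. The highest cells had 64 and 107 Il10 UMIs in butyrate before thinning, against 4 and 4 in control. For Il24 the highest cells had 59 and 84 UMIs in butyrate, and 47 and 12 UMIs in control. The top 1% of cells held 34.4 and 38.6% of all Il10 UMIs in the butyrate libraries and 53.4 and 59.2% of all Il24 UMIs. Spread evenly at random over the thinned cells, the same number of Il10 UMIs would have marked 14.7 and 23.5% of butyrate cells, and that of Il24 UMIs 10.1 and 11.0%. In control the random spread gave 0.351 and 0.357% for Il10, next to the shares measured, since nearly every control cell with Il10 held a single UMI.

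Free RNA carried both genes. Barcodes with at most 100 UMIs, which hold mostly free RNA, contained 89 and 107 Il10 UMIs in butyrate and 4 and 3 in control, and 102 and 56 Il24 UMIs in butyrate against 6 and 13 in control. Per 100000 such barcodes this was 7.90 and 8.29 Il10 UMIs in butyrate against 0.396 and 0.276 in control. The libraries held no population of cells known to lack Il10 and Il24, so the share of cells with a stray UMI of either gene was not measured.

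**Figure D2:**
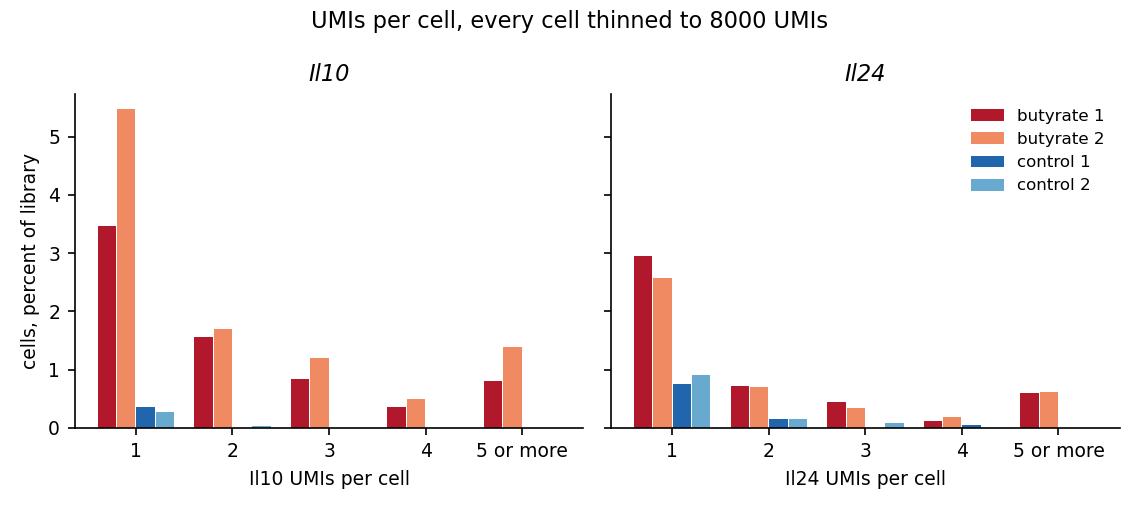
Share of the cells of each library that held 1, 2, 3, 4 or at least 5 UMIs of Il10 (left) and Il24 (right), with every cell thinned to 8000 UMIs. In butyrate 20 and 36 cells held at least 5 Il10 UMIs and 15 and 16 cells at least 5 Il24 UMIs, and no control cell did.

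Cells that carried one of the genes often carried the other. In butyrate 1, 38 cells held both, where 8.50 would if the genes were independent. In butyrate 2, 51 cells held both, against 11.8 if independent. Among Il10 cells 21.6% (exact 95% interval 15.8 to 28.4) and 19.2% (14.6 to 24.4) carried Il24, against 3.56% (2.85 to 4.40) and 2.75% (2.12 to 3.49) of the cells without Il10. These are ratios of 6.06 and 6.98, and the intervals of the compared shares did not overlap in either library. Read the other way, 31.4 and 44.3% of Il24 cells carried Il10, against 5.79 and 8.67% of the cells without Il24. Most carriers nevertheless held only one of the genes: 138 and 215 cells had Il10 alone, and 83 and 64 had Il24 alone. In control 0 and 1 thinned cells held both, too few to compare. Without thinning 8 and 8 control cells held both, against 0.594 and 1.26 if independent. Before thinning, cells with both genes had medians of 30432.5 and 24971 UMIs, cells with Il10 alone 23408.5 and 24505, cells with Il24 alone 29545 and 26548.5, and cells with neither 25151 and 23864. The depth of the classes thus differed before thinning, and thinning set it equal.

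Over the cells of the butyrate libraries, Il10 was the gene whose pattern was most like Il24, with Pearson correlations of log UMIs of 0.251 and 0.267. Of 7599 genes present in at least 5% of cells, those most like Il10 were Furin, a protease that processes precursors of cytokines and growth factors (0.208 and 0.159), Gzmb, encoding the cytotoxic protease granzyme B (0.156 and 0.179), Tnfrsf4, encoding the costimulatory receptor OX40 (0.148 and 0.198), Rgs1, a regulator of G protein signalling (0.170 and 0.147), and Maf (0.160 and 0.143). Prdm1 ranked 385 in that order. Il24 was not in it, because 4.83 and 4.43% of cells carried it, under the 5% limit. Its correlations with Il10, 0.251 and 0.267, were above those of Furin. For Il24, Vim, Lta, Fth1 and Tnfrsf4 followed Il10, with a lower correlation of 0.129 to 0.137 in the weaker library, and Maf ranked 78. The measure was the smaller of the 2 libraries' correlations. These correlations are weak and rest on sparse counts that share library and depth, so they only order the genes.

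Maf went with Il10. Summed over Il10 cells, Maf measured 94.8 and 79.4 CPM, against 25.3 and 32.1 CPM in the other cells of the same butyrate libraries (log2 fold change 1.57, SE 0.13, edgeR with library as a term, adjusted p = 7.33e-11). Of 11177 genes tested in this comparison, 4.46% passed, 3.14% higher and 1.32% lower in Il10 cells. A Maf UMI was present in 42 of 176 Il10 cells (23.9%) of butyrate 1 and in 74 of 266 (27.8%) of butyrate 2, against 11.2 and 14.1% of the other cells. By the number of Maf UMIs in a cell, 0, 1, 2 or at least 3, the share with Il10 was 6.08, 10.6, 12.1 and 22.4% in butyrate 1 and 8.75, 15.4, 24.4 and 19.8% in butyrate 2. In both libraries each share at 1 or more Maf UMIs was above the share at 0, and the last step went up in butyrate 1 and down in butyrate 2, with overlapping intervals. The Maf difference was 1.51 among the tertile of cells with fewest UMIs of G2M genes (adjusted p = 4.23e-23) and 1.49 with all Il24 cells left out (adjusted p = 7.82e-20). Most Il10 cells had no Maf UMI at this depth, and most Maf cells had no Il10 UMI.

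Prdm1, although higher in Il10 cells of both libraries, did not pass the threshold in the comparison with the other cells. It measured 44.8 and 35.6 CPM in Il10 cells against 30.2 and 30.4 CPM in the others (log2 fold change 0.38, SE 0.15, adjusted p = 0.18), and 26.7 and 24.1% of Il10 cells carried it against 19.3 and 19.9% of the others. By 0, 1, 2 or at least 3 Prdm1 UMIs, the Il10 share was 6.42, 9.39, 11.1 and 6.67% in butyrate 1 and 9.77, 12.9, 10.8 and 0% in butyrate 2, the last group being 30 and 17 cells. A true share of up to 22.1 and 19.5% is within the exact intervals of that group. Cells with both Maf and Prdm1 carried Il10 in 16.1% (exact 95% interval 8.02 to 27.7) and 27.6% (18.5 to 38.2). Cells with Maf alone did so in 13.3% (9.30 to 18.3) and 15.9% (12.02 to 20.4), cells with Prdm1 alone in 8.53% (6.07 to 11.6) and 9.07% (6.56 to 12.1), and cells with neither in 5.48% (4.47 to 6.64) and 8.67% (7.40 to 10.1). The order was the same in both libraries, but the intervals of neighbours in that order overlapped throughout. Butyrate cells with neither gene still carried Il10 more often than control cells with neither, at 0.276 and 0.354%.

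Il24 was less tied to Maf, and no tie to Prdm1 was detected. Maf measured 53.5 and 59.3 CPM in Il24 cells against 28.9 and 35.8 CPM in the others (log2 fold change 0.80, SE 0.17, adjusted p = 0.000517), where 2.91% of 11336 genes passed, 1.94% higher and 0.97% lower. Among cells without Il10 the difference was 0.03 (adjusted p = 0.987), so it was not detected once the cells with both genes were left out. The call was also lost with DESeq2 (adjusted p = 0.219), with cells thinned to 4000 UMIs (0.723) and with carriers of at least 2 UMIs (0.316). In the 4 classes, Maf was present in 21.1 and 39.2% of cells with both genes, 24.6 and 25.1% with Il10 alone, 12.05 and 12.5% with Il24 alone, and 11.1 and 14.1% with neither. Prdm1 measured 29.4 and 31.3 CPM in Il24 cells and 31.4 and 31.0 CPM in the others (log2 fold change -0.04, SE 0.21, adjusted p = 0.969). In a direct comparison of cells with Il10 alone and cells with Il24 alone, added after the data were seen, Maf was higher in the Il10 cells (94.7 and 73.0 CPM against 35.0 and 22.0, log2 fold change 1.54, SE 0.24, adjusted p = 1.4e-07) and Prdm1 did not pass (0.47, SE 0.30, adjusted p = 0.618). Of 6436 genes in that comparison 1.38% passed, 0.777% higher and 0.606% lower with Il10.

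**Figure D3:**
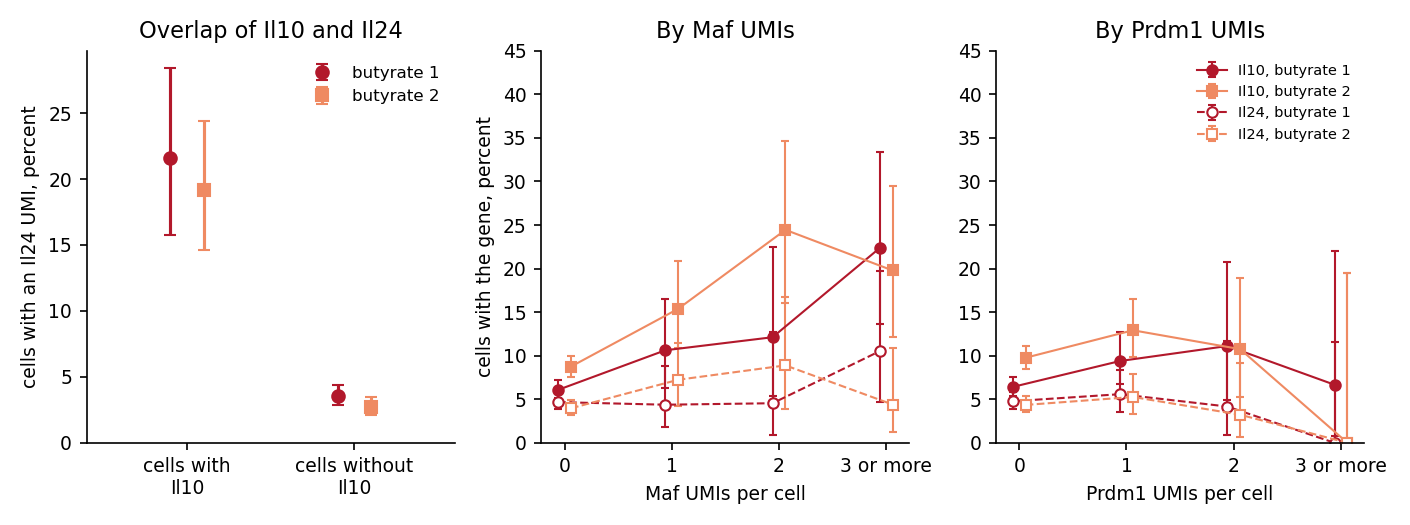
Left, share of cells with an Il24 UMI among cells with and without Il10 in the 2 butyrate libraries. Middle and right, share of cells with Il10 (filled, solid) and Il24 (open, dashed) by the number of Maf or Prdm1 UMIs in the cell; bars are exact 95% intervals. Il10 is at 6.08 and 8.75% with 0 Maf UMIs and at 22.4 and 19.8% with 3 or more; with 3 or more Prdm1 UMIs it is at 6.67 and 0%.

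Il10 was most frequent in cells with few transcripts of the G2 and M phases. By tertiles of the cells of a library, ordered by summed UMIs of 53 G2M genes, Il10 was carried by 12.7, 4.88 and 3.34% of butyrate 1 cells in the lowest, middle and highest tertile, and by 16.2, 8.21 and 6.29% of butyrate 2 cells. The lowest tertile stood apart, and the intervals of the middle and highest tertile overlapped. Il24 went the same way with smaller steps, at 6.83, 4.88 and 2.74% in butyrate 1 and 6.44, 4.22 and 2.63% in butyrate 2. By 42 S phase genes the Il10 shares were 9.72, 7.85 and 3.58% and 12.4, 10.1 and 8.20%, and the Il24 shares 5.21, 5.66 and 3.70% and 5.55, 4.97 and 2.81%. Maf had its lowest share in the middle tertile by G2M genes, with 16.1, 7.81 and 12.1% in butyrate 1 and 20.1, 9.73 and 16.5% in butyrate 2, so it did not follow the order of Il10 or Il24. In control no more than 0.467% of cells of any tertile carried Il10, and its tertiles could not be told apart at this depth. The median summed G2M count was 16 and 15 UMIs in the lowest tertile of the butyrate libraries and 22 and 26 UMIs in that of the control libraries.

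**Figure D4:**
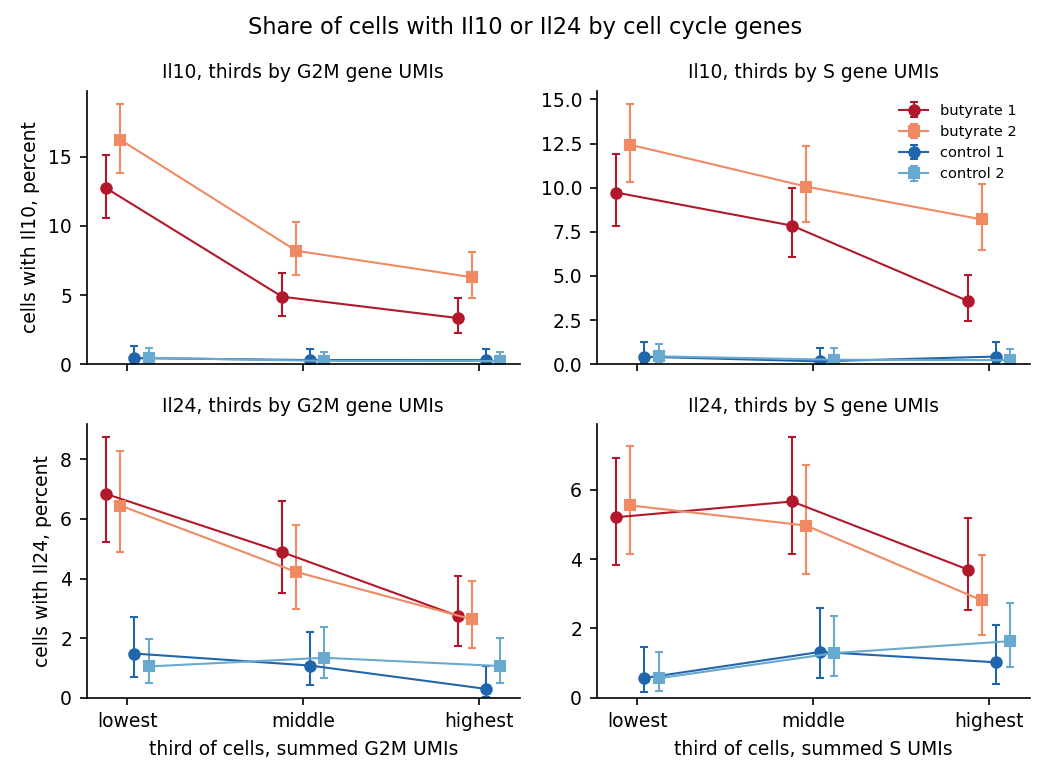
Share of cells with Il10 (top) and Il24 (bottom) in the lowest, middle and highest tertile of each library by summed UMIs of G2M genes (left) and S phase genes (right), with exact 95% intervals. Butyrate lines fall from left to right by G2M genes, from 12.7 and 16.2% to 3.34 and 6.29% for Il10, and the control lines lie below all of them.

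The sums gave the same picture gene by gene. Of 53 G2M genes, 36 were lower and 0 higher in Il10 cells, with a median log2 fold change of -0.61, where 1.32% of all genes were lower and the median gene was at 0.00. Of 42 S phase genes 5 were lower and 0 higher. Mki67 measured 245 and 288 CPM in Il10 cells against 401 and 371 CPM in the others (log2 fold change -0.51, SE 0.06, adjusted p = 6.24e-07), and Top2a 361 and 434 CPM against 667 and 644 CPM (-0.71, SE 0.05, adjusted p = 8.32e-11). The 8 largest decreases were those of Ska1 and Nusap1 of the spindle, Esco2 of sister chromatid cohesion, the histone gene H2afx, the spindle assembly factor Tpx2, the phosphatase gene Cdkn3, the spindle gene Hmmr and the cyclin gene Ccna2, between -1.11 and -0.84. Cdkn1a, which encodes the cell cycle inhibitor p21, was higher (287 and 259 CPM against 178 and 195 CPM, log2 fold change 0.54, adjusted p = 6.24e-07). So was Ccnd2, a cyclin of the G1 phase (0.45, adjusted p = 6.57e-07). Many Il10 cells still held proliferation transcripts: 113 of 176 and 171 of 266 held a Top2a UMI. Cells with neither a Mki67 nor a Top2a UMI carried Il10 in 15.7 and 17.99%, and cells with either in 5.61 and 8.77%.

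In Il24 cells 14 of 53 G2M genes were lower and 0 higher (median -0.39, against 0.97% of all genes lower), and 0 of 42 S phase genes passed. Mki67 was at 251 and 269 CPM in Il24 cells against 399 and 367 CPM in the others (log2 fold change -0.56, SE 0.08, adjusted p = 3.92e-09). Top2a was at 516 and 499 CPM in Il24 cells against 656 and 630 CPM in the others (-0.34, SE 0.06, adjusted p = 1.75e-05). With Il10 cells left out, Mki67 still passed (-0.46, adjusted p = 0.00285) and Top2a did not (-0.15, adjusted p = 0.546). Against cells with Il24 alone, cells with Il10 alone had less Top2a (375 and 448 CPM against 609 and 595 CPM, log2 fold change -0.55, SE 0.10, adjusted p = 3.69e-06), a call that DESeq2 did not make (-0.55, adjusted p = 1.0). Mki67 did not pass (257 and 303 CPM against 273 and 306 CPM, adjusted p = 0.949). Cells with neither a Mki67 nor a Top2a UMI made up 31.6 and 37.3% of cells with both cytokine genes, 31.2 and 26.0% with Il10 alone, 12.05 and 7.81% with Il24 alone and 12.7 and 14.9% with neither. Summed G2M UMIs per cell averaged 34.4 and 32.2 with both genes, 32.4 and 37.4 with Il10 alone, 42.1 and 43.5 with Il24 alone and 52.8 and 52.6 with neither.

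Il10 cells and Il24 cells were both set against mostly the same other cells, and 38 of 121 and 51 of 115 Il24 cells were also Il10 cells. Their values are therefore given side by side and not as an overlap. Tnfrsf4 was higher by a log2 fold change of 1.26 in Il10 cells and 1.22 in Il24 cells, Furin by 1.47 and 1.25, and Rgs1 by 1.18 and 1.11. Il2ra, the high-affinity IL-2 receptor chain, was higher by 0.76 and 0.80, and the costimulatory receptor gene Icos by 0.75 and 0.65. Granzyme B (Gzmb) was higher by 0.71 and 0.64 and granzyme A (Gzma) by 0.77 and 0.52. All of these passed in both comparisons, to which the cells with both genes contributed each time. Passing in both therefore does not show a difference in cells with Il24 alone. Of those cells 49.4 and 45.3% carried Tnfrsf4, against 30.3 and 27.2% of cells with neither gene. Ctla4, encoding an inhibitory receptor, measured 169 and 169 CPM in Il10 cells against 83.8 and 92.1 CPM in the others (0.93, adjusted p = 1.28e-10) and did not pass in Il24 cells (0.25, adjusted p = 0.297). Of 30 tested genes of a list of transcription factors tied to Il10 in the literature, 10 were higher and 1 lower in Il10 cells (median 0.26), beside 3.14 and 1.32% of all genes, and 5 were higher and 2 lower in Il24 cells (median 0.07), beside 1.94 and 0.97% of all genes. Beside Maf the passing genes of Il10 cells included Id2, an inhibitor of helix-loop-helix factors (0.44, adjusted p = 1.59e-09), and the AP-1 gene Junb (0.54, adjusted p = 5.73e-07).

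Further genes differed in Il24 cells. They had more Lta, encoding lymphotoxin alpha (791 and 665 CPM against 413 and 337 CPM, log2 fold change 0.96, adjusted p = 3.97e-28), more Tnfrsf8, encoding CD30 (65.1 and 105 CPM against 32.2 and 31.7 CPM, 1.40, adjusted p = 8.19e-13), and more of the transcription factor gene Batf3 (86.1 and 119 CPM against 40.6 and 39.7 CPM, 1.34, adjusted p = 3.27e-14). Ccr7, a receptor that guides cells into lymph nodes, was higher in Il24 cells (31.5 and 72.7 CPM against 18.5 and 16.9 CPM, 1.54, adjusted p = 7.69e-06). Lower in Il24 cells were Gzmk, encoding granzyme K (11.5 and 28.0 CPM against 55.9 and 65.5 CPM, -1.64, adjusted p = 6.52e-10), Eomes, a transcription factor of memory and effector CD8+ T cells (-1.497, adjusted p = 2.24e-06), the immediate early gene Egr1 (-1.13, adjusted p = 6.75e-11) and the surface protein gene Ly6c2 (-1.04, adjusted p = 7.71e-14). Of these, Lta had a similar fold change in Il10 cells without passing there (0.87, SE 0.22, adjusted p = 0.452), Tnfrsf8 was higher also in Il10 cells (0.85, adjusted p = 1.74e-05), and Gzmk (-0.40, adjusted p = 0.0445), Eomes (-0.51, adjusted p = 0.0349) and Ly6c2 (-0.46, adjusted p = 8.27e-05) were lower there too. Gzmk was carried by 7 of 121 and 10 of 115 Il24 cells. The direct comparison of cells with Il10 alone and cells with Il24 alone tested the difference between the classes. It gave higher values with Il10 for the chemokine gene Ccl5 (2762 and 1967 CPM against 751 and 450 CPM, log2 fold change 1.99, SE 0.08, adjusted p = 1.76e-95), Ctla4 (0.93, adjusted p = 2.65e-06), Havcr2, encoding TIM-3 (1.10, adjusted p = 0.000294), Prf1, encoding perforin (0.96, adjusted p = 7.01e-22), Egr1 (1.40, adjusted p = 1.16e-08) and Gzmk (1.51, adjusted p = 0.000457). It gave lower values with Il10 for Ccr7 (-2.52, adjusted p = 7.88e-12), Batf3 (-1.31, adjusted p = 1.11e-07) and Igfbp4, encoding a binding protein of insulin-like growth factors (-2.99, adjusted p = 1.58e-08). Igfbp4 was carried by 5 and 4 cells with Il10 alone against 10 and 12 with Il24 alone, and Ccr7 by 7 and 16 against 13 and 13. These passed also without the 2% of cells with most UMIs of each gene, a setting added after the data were seen. For Igfbp4, Ccr7 and Gzmk that setting took a larger part of the carriers from the class where the gene was rarer. It removed every Igfbp4 carrier with Il10 alone in butyrate 2, so it could not test whether these 3 genes rested on few cells. DESeq2 on the same sums passed only 6 genes higher and 0 lower of all tested.

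Some genes with large differences rested on few cells. Gzmd, encoding granzyme D, was higher in Il10 cells (log2 fold change 1.40, adjusted p = 5.95e-09), but was found in 5 of 176 and 14 of 266 of them, and 1 cell held 86.0 and 43.8% of those UMIs. Without the 2% of cells with most Gzmd UMIs the difference was 0.18 (adjusted p = 0.911). Il13, a type 2 cytokine gene, was higher in Il24 cells (69.3 and 59.3 CPM against 2.42 and 4.24 CPM, 4.28, adjusted p = 1.2e-34). It was carried by 11 of 121 and 14 of 115 of them, or 9.09 and 12.2%, against 1.43 and 1.17% of the other cells. Leaving out the 2% of cells with most Il13 UMIs removed all 34 and 29 carriers among the other cells. That setting could therefore not test whether the difference rested on few cells. Il4, another type 2 cytokine gene, was found in 9 and 10 Il10 cells, and 1 cell of butyrate 2 held 81.6% of those UMIs. The p-values of these sums draw on variation between 2 libraries and over genes, and they do not measure the spread between cells.

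**Figure D5:**
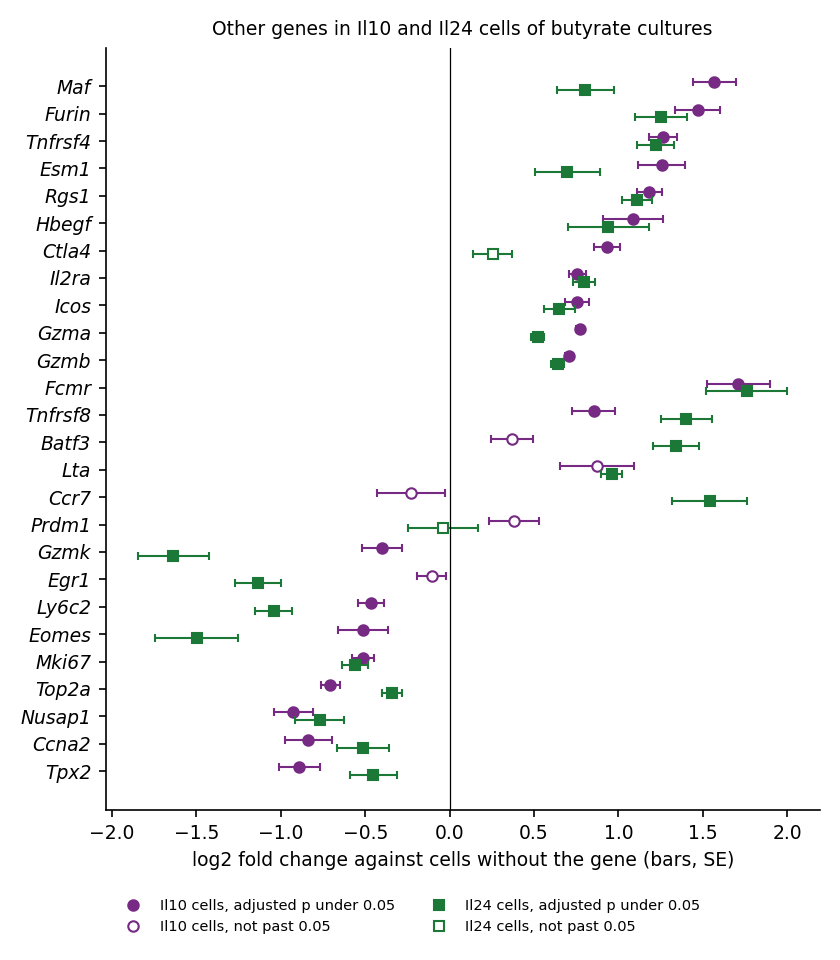
Log2 fold change of named genes in Il10 cells (purple circles) and Il24 cells (green squares) of the butyrate libraries, each against the cells without that gene; bars are standard errors and open symbols did not pass an adjusted p of 0.05. Maf is at 1.57 in Il10 cells and 0.80 in Il24 cells, Tnfrsf4 at 1.26 and 1.22, and Ccr7 at -0.23 (not past the threshold) and 1.54.

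Most carriers held CD8 transcripts. Cd8a was present in 72.2 and 71.4% of Il10 cells against 63.6 and 63.3% of the others, and in 71.9 and 72.2% of Il24 cells against 63.8 and 63.8% of the others. Of 5 CD8 T cell genes 4 were higher in Il10 cells (median log2 fold change 0.23), beside 3.14% of all genes. In Il24 cells 0 passed (median 0.15), beside 1.94% of all genes higher and 0.97% lower. Cd4 was found in 1 of 176 and 0 of 266 Il10 cells, and in 2 of 121 and 2 of 115 Il24 cells, or 1.65 and 1.74% against 0.629 and 0.524% of the cells without Il24 (adjusted p = 0.568). Foxp3, the defining gene of regulatory T cells, was found in 0 Il10 cells and 0 Il24 cells of either butyrate library. It was found in only 1 of 2247 and 1 of 2266 cells with neither gene, too few to compare. A list of 5 CD4 or regulatory T cell genes summed to 163 and 160 CPM without TMM scaling in Il10 cells against 84.7 and 87.4 in the others, and its member Tnfrsf4 measured 147 and 145 CPM against 63.1 and 58.9 CPM. In Il24 cells the same list summed to 179 and 159 against 85.7 and 91.9 in the others. The 6 B cell genes summed to 36.9 and 33.4 in Il10 cells against 51.7 and 53.7 in the others, with Ms4a1 and Pax5 at 0. The 8 macrophage or monocyte genes summed to 14.2 and 16.0 in Il10 cells against 13.8 and 14.3 in the others, with C1qa, C1qb and Adgre1 at 0. The 3 neutrophil genes summed to 4.97 and 5.64 in Il10 cells against 0.805 and 1.13 in the others, all of it Ly6g (log2 fold change 2.50, adjusted p = 0.00289), which was found in 2 and 9 Il10 cells, with S100a8 and S100a9 at 0. Over all cells the macrophage list was at 12.9 and 14.4 unscaled CPM in butyrate against 2.17 and 2.63 in control, the 6 dendritic cell genes at 5.13 and 6.18 against 1.35 and 2.07, and the B cell genes at 44.8 and 45.1 against 145 and 149. Here too C1qa, C1qb, Adgre1 and Pax5 were at 0, and Cd79a counted 5 and 4 UMIs in butyrate and 3 and 3 in control. Of 2 tested B cell genes 1 was higher and 1 lower, and 3 of 3 tested macrophage genes were higher, beside 36 and 35.7% of all genes. These sums do not measure numbers of B cells, macrophages or dendritic cells. The part of these genes in the butyrate difference of Il10 and Il24 was not tested. Restricted to cells with a Cd8a or Cd8b1 UMI, Maf was higher in Il10 cells by 1.52 (adjusted p = 3.33e-28).

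The other IL-10 family ligands were at or near 0. Il19, which lies between Il24 and Il10, counted 16 and 8 UMIs in butyrate and 1 and 2 UMIs in control, too few to be tested. Il20, Il22, Ifnl2 and Ifnl3 had 0 UMIs in all 4 libraries. Of the receptor genes, Il10ra measured 11.0 and 12.7 CPM in butyrate against 11.4 and 10.6 CPM in control (log2 fold change 0.11, SE 0.08, adjusted p = 0.222). Il10rb was slightly lower, at 25.5 and 26.4 CPM in butyrate against 29.6 and 30.4 CPM in control (-0.21, SE 0.05, adjusted p = 0.00193). Il20rb was lower at 0.544 and 0.640 CPM in butyrate, against 1.06 and 1.13 CPM in control (-0.89, SE 0.21, adjusted p = 0.00169). Il20ra and Ifnlr1 had at most 4 UMIs and Il22ra1 had 0 UMIs in every library, so the chains that Il24 signals through were at or near 0 apart from Il20rb. In neither class comparison did Il10ra or Il10rb pass.

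The genes around the cluster did not move as a block. Of 20 genes that start within 300 kb of Il10 or Il24, 8 were tested, and 4 were higher and 3 lower in butyrate. Higher were Fcmr, encoding the Fc receptor for IgM and the nearest tested gene to Il24 (12.6 and 12.5 CPM in butyrate against 5.47 and 5.36 CPM in control, log2 fold change 1.22, SE 0.07, adjusted p = 1.24e-09), the kinase genes Dyrk3 (1.16) and Mapkapk2 (0.43) and the translation factor gene Eif2d (0.60). Lower were the deubiquitinase gene Yod1 (-0.33), Rassf5, encoding a regulator of lymphocyte adhesion (-0.39), and the kinase gene Ikbke (-0.73). With 36 and 35.7% of all genes passing in each direction, these shares are near the background. Fcmr was higher also in both kinds of carrier, at 1.71 in Il10 cells (adjusted p = 4.51e-08) and 1.76 in Il24 cells (29.4 and 35.8 CPM against 8.90 and 10.3 CPM, adjusted p = 7.08e-09). It was found in 26 of 121 and 31 of 115 Il24 cells. Of cells with Il24 alone 21.7 and 18.75% carried Fcmr, against 5.83 and 7.02% of cells with neither cytokine gene. Mapkapk2 was higher by 0.57 in Il10 cells (adjusted p = 9.58e-06) and 0.43 in Il24 cells (adjusted p = 0.00842), and none of the other tested neighbours passed in either comparison.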

How the data were processed

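UMI counts per gene and droplet were deposited without a cell filter. Cell Ranger 4, Seurat 4.3 and the mm10 build are listed, without their roles, in the submitters' processing notes. The sources used here do not name the annotation. Cells were barcodes with at least 10% of the 99th percentile of UMIs of the top 3000 barcodes, at least 500 genes and under 10% mitochondrial UMIs, which removed 63 and 92 butyrate and 217 and 295 control barcodes. Scrublet (scanpy 1.11.5) called 7, 9, 1 and 3 doublets in butyrate 1, butyrate 2, control 1 and control 2, too few for the caller to have worked, so none were removed, and an alternative left out the highest 2% of scores. Cells under 8000 UMIs (54 and 68 in butyrate, 71 and 112 in control) were left out of thinned values.

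Sums of counts went into robust quasi-likelihood F tests (edgeR 4.0.16, R 4.3.3) with TMM scaling, filterByExpr and Benjamini-Hochberg adjustment over all tested genes. DESeq2 1.42.0 was an alternative. SEs were derived from the F statistic. For butyrate against control, group was the only term. The library names in the labels give the mouse of each library, and deviations from group means correlated across genes within a mouse at 0.059 (Spearman 0.053). For Il10 cells and Il24 cells, thinned UMIs were summed per butyrate library over cells with and without the gene, with library as a term. The same model on control cells was not fitted because it needed 20 carriers in every control library, and these held 7 and 8 with Il10 and 19 and 29 with Il24. The fits were also run on simulated sums of counts. These were drawn for each sum and not for single cells, so they could not test differences that rest on few cells. A class defined by 1 UMI misses carriers at this depth.

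Named were Il10, Il24, Maf, Prdm1, Mki67 and Top2a, from each list the 4 members of lowest p at most, and in the cell comparisons the 8 largest increases and decreases among passing genes of at least 20 CPM with the same direction in both libraries, predicted genes left out. Neighbours were all genes starting within 300 kb. The members, lists and rules were chosen with earlier results of these data known. Coordinates come from GENCODE M21, in which 32158 of 32285 IDs were found. UMIs of close paralogues such as the granzymes may be assigned to the wrong member. With 2 cultures per group, p-values draw on the spread between these cultures and on variation pooled over genes. They do not measure the spread between further mice or cultures.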

Additional observations from a re-analysis of the deposited data

Results flagged for a closer look

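Il10 and Il24 UMIs were found in barcodes that the analysis left out, above the level in control. In barcodes over the mitochondrial limit, the mean over the butyrate libraries was 25.8 unscaled CPM for Il10 (38.4 and 13.2), against 0 and 0.973 in control, and 28.2 for Il24 (33.6 and 22.7), against 0.930 and 2.92 in control. These rest on 24 and 11 Il10 UMIs and 21 and 19 Il24 UMIs in 63 and 92 butyrate barcodes.

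In barcodes of at least 1000 UMIs that fell below the cell limit, the butyrate mean was 56.1 unscaled CPM for Il10 (51.0 and 61.1), against 0.922 and 0.405 in control, and 24.3 for Il24 (38.8 and 9.78), against 3.23 and 1.22 in control. There were 261 and 231 such barcodes in butyrate and 603 and 628 in control, and 5.75 and 7.36% of those in butyrate held an Il10 UMI. The Il10 values rest on 50 and 50 UMIs in butyrate and 2 and 1 in control. Those of Il24 rest on 38 and 8 UMIs in butyrate and 7 and 3 in control. In the kept butyrate cells Il10 was at 21.0 and 31.8 unscaled CPM and Il24 at 15.3 and 15.9.

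The share of Il24 cells went in opposite directions by S phase genes in butyrate and control. From the lowest to the highest tertile it changed by -2.12 percentage points on average in butyrate (-1.51 and -2.74) and by 0.454 and 1.07 points in control, where only 19 and 29 cells carried Il24. The difference between the groups was not tested.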

How the results depend on the processing

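Fold changes are log2. With cells thinned to 4000 UMIs, not thinned, or called at 2 UMIs, the share of cells in butyrate minus control was 5.78, 13.1 and 4.14 percentage points for Il10 (8.30 as reported) and 2.59, 5.71 and 1.64 for Il24 (3.58). The ratio of Il24 shares in cells with and without Il10 was 5.45, 5.25 and 9.46, and 7.18 at a mitochondrial limit of 5% (6.52). The share of the highest minus the lowest G2M tertile in butyrate was -7.09, -9.03, -6.96 and -10.7 for Il10 (-9.66) and -2.60, -3.18, -2.09 and -4.33 for Il24 (-3.95). By S phase genes it was -3.18 (4000 UMIs) and -2.64 (2 UMIs) for Il10 (-5.18), and -0.943, -3.80 (no thinning) and -0.777 for Il24 (-2.12). All kept their direction.

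Summed from thinned cells, the butyrate fold change was 6.09 for Il10 and 3.22 for Il24, and at the 5% limit 2.38 for Il24. Leaving out 1 library gave 5.19 to 5.78 for Il10, 2.49 to 2.78 for Il24, 2.46 to 3.11 for Maf and 1.79 to 1.97 for Prdm1, and Maf lost its call without either control library. With mouse as a replicate block the values were 5.54, 2.63, 2.75 and 1.88 with 4958 higher and 4931 lower genes, and it changed the call of neither Maf nor Prdm1, Il10 and Il24 having no test. Il10ra turned to -0.0016 (thinned) and -0.092 (library totals), and Top2a to -0.14 (library totals) and, without 1 library, to a range of -0.0067 (without control 2) to 0.12.

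In Il24 cells Maf was not past the threshold at 0.57 (4000 UMIs), 0.81 (DESeq2), 1.06 (2 UMIs), 0.61 (lowest G2M tertile) and 0.033 (no Il10 cells). Prdm1, not called, was at 0.34 (4000 UMIs), 0.0095 (Cd8a or Cd8b1 cells), 0.15 (5% limit) and 0.0036 (top cells left out). In the lowest G2M tertile Gzmd (-0.35) and Nusap1 (0.45) in Il10 cells and Mki67 (0.14), Cenpf (0.043) and Top2a (0.22) in Il24 cells changed sign. That tertile was cut on the G2M genes, which include these except Gzmd, so the sign there says nothing about their stability. The causes were not tested.

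Genes called higher and lower in Il10 cells, 351 and 148 as reported, were 183 and 71 (4000 UMIs), 119 and 39 (DESeq2), 215 and 255 (library totals) and 206 and 53 (lowest G2M tertile), with 47 (DESeq2) and 43 (lowest tertile) list members of 92. In Il24 cells, 220 and 110 as reported, they were 34 and 9 (4000 UMIs), 72 and 16 (DESeq2), 10 and 1 (2 UMIs), 113 and 32 (lowest tertile), 129 and 45 (5% limit) and 94 and 28 (no Il10 cells), with 127 higher by library totals and 46 lower without top doublet scores. List members there were 16, 27, 6, 35 and 25 (no Il10 cells) of 57. Between cells with Il10 alone and Il24 alone, 50 higher and 39 lower became 6 and 0 (DESeq2), 26 and 8 (no replicate block) and 30 and 13 (top cells left out), 32 higher by library totals, and list members 4 (DESeq2) and 12 (no block) of 20. The settings of the lowest tertile, Cd8a or Cd8b1 cells, the other gene's carriers and the top cells, and the comparison of single carriers, were chosen after seeing the data. At 8000 UMIs a cell with few molecules can be missed.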
